A study of Mus musculus with 864 samples.

Results

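The cytosolic ribosomal protein genes encode the proteins of the 2 subunits of the cytosolic ribosome, Rpl genes those of the large subunit and Rps genes those of the small subunit. Members were chosen by name: rows called Rpl or Rps followed by a digit, together with Rplp0, Rplp1, Rplp2 and Rpsa, leaving out 10 rows of Rps6k kinases and 2 rows whose names carry the pseudogene mark (Rpl34-ps1 and Rps19-ps3). This gave 86 of 23281 gene rows, 52 of the large and 34 of the small subunit. RefSeq (GRCm38.p6) lists 85 of the 86 as protein coding, and gives Rps4y2 under the symbol Rps4l, a transcribed pseudogene. The name rule also takes in Rps19bp1, a protein that binds a ribosomal protein and is not part of the ribosome.

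The study measured RNA in single cells picked from dissociated lumbar dorsal root ganglia of C57/Bl6 mice aged 6 to 8 weeks, with a method that reads the 5′ ends of transcripts. Cells were collected in 3 picking sessions: session A (males and females, room temperature), session B (males, room temperature) and session C (males and females, with the picking stage cooled). Session by sex gives 5 preparations, which are the replicates here, because the labels name no animal. In the session test, p-values therefore measure the spread between preparations of the same session. Session B is 1 preparation, so its own spread was not measured. The class and non-neuronal tests take out level differences between preparations (preparation as a block). Their p-values measure how far class differences vary between preparations. Both kinds of spread may be technical. Of 799 wells labelled as holding 1 cell, 694 listed 1000 or more genes above 0 and were used: 259 from session A (45 of them from females), 259 from session C (75 from females) and the rest from session B.

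Ribosomal proteins are needed in near-equal numbers, and every cell makes them. Most of their mRNAs start with a C followed by an unbroken run of pyrimidines, the 5′ terminal oligopyrimidine tract, through which growth signals set their translation as a group. Sensory neurons differ widely in size and in the length of axon they supply, and a neuron's ribosomes serve both the cell body and the axon. The neuron classes of the ganglion are the NF class (neurofilament-rich, large, myelinated), the NP class (non-peptidergic nociceptors and itch neurons), the PEP class (peptidergic nociceptors) and the TH class (tyrosine hydroxylase neurons with low mechanical thresholds).

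Wells were grouped by clustering with all member rows left out, and clusters were called by marker genes. TH-like cells filled 253 wells (36.5%) and PEP-like cells 59 (8.5%), while 26.8% of wells were NP-like and 21.9% NF-like. A further 44 wells formed 1 non-neuronal cluster in which the summed level of 7 neuron markers was 1016 to 4570 RPM (reads per 1000000 of the well) across preparations, against 12686 to 22124 RPM across the neuron classes. Its summed level of 9 fibroblast markers was 13377 to 26975 RPM and that of 8 satellite glia markers 2081 to 36653 RPM, and 10 of 12 immune markers were raised in it (summed level 3.28 to 7455 RPM), the largest number for any list, so it is treated as mixed. The PEP-like wells held 335 to 5132 RPM of the same satellite glia markers, against 94.6 to 1167 RPM in the other 3 neuron classes. Other non-neuronal lists also reached higher there, at up to 10058 RPM for Schwann cell, 5882 for fibroblast, 2501 for mural and 1044 for immune markers, against at most 1974, 1421, 284 and 66.6 RPM; the part of these in the results was not tested. Depth followed session, with a median of 15421 and 15597 reads per well in session A, 198657 in B, and 1526075 and 2573229 in C, and each plate belongs to 1 session. Only session C was cooled, so that session C and cooling cannot be told apart, while sessions A and B were both picked at room temperature. NF-like wells listed a median of 5243 genes, against 2718 to 3402 in the other neuron classes and 1472 in the non-neuronal wells. Depth also differed between clusters within preparations. Relative to the median of its preparation, the median well had 1.69 to 3.43 times the reads in the 3 NF-like clusters. This ratio was 0.45 to 1.89 in NP-like and TH-like clusters, 0.373 in the PEP-like and 0.095 in the non-neuronal cluster. The part of depth in class differences of the summed share was not tested.

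The reads start at the 5′ end of the mRNA, so the annotated starts of the members that the results turn on are shown here. Each line gives 30 bases from RefSeq (GRCm38.p6), 10 before the annotated start and 20 from it, with capitals for a run that opens with C within 3 bases of the start and goes on with 5 or more of C or T. Only the strand of the gene was searched. The first 6 genes are rows that followed picking session, and Rps9 was lower in NF-like cells.

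Rplp2 (chr7:141447641-141447670, + strand): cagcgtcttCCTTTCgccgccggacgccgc
Rps6 (chr4:86857348-86857377, - strand): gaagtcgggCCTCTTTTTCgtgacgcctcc
Rpl35 (chr2:39005112-39005141, - strand): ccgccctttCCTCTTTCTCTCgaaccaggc
Rpl4 (chr9:64173377-64173406, + strand): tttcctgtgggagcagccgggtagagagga
Rps13 (chr7:116334171-116334200, - strand): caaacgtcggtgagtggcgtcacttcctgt
Rps12 (chr10:23787190-23787219, - strand): tcatgcggccaccgccggccttttcccctg
Rps9 (chr7:3704031-3704060, + strand): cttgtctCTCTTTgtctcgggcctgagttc

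RefSeq's table held starts for 64 of the 86 members, and 24 of the 64 (37.5%) had such a run, against 8.53% of 27025 symbols in the same table. Among members that followed session, 3 of the 7 with a sequence had the run (Rplp2, Rps6 and Rpl35), and Rpl4, Rpl10a, Rps12 and Rps13 did not at the starts listed. Among the members that did not follow session it was 20 of 52. For the 10 members with more than 1 annotated start, a run at any of them was counted, as for the other symbols. The match describes letters at annotated starts and not where these reads began.

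Nearly all members were read in most wells. Over the neuron class values, 14 members averaged 1000 RPM or more, 58 lay from 100 to under 1000 RPM, 9 from 5 to under 100 RPM and 5 under 5 RPM. Because reads mark 5′ ends, RPM is not divided by length, and levels of different genes are compared on that scale. Reads carry no molecular identifiers, so RPM counts reads and not transcripts. The highest included Rpl4 (4311 RPM), Rplp1 (1784), Rps29 (1485), Rplp2 (1413), Rpl13a (1335), Rps6 (1208), Rpl10a (1171) and Rps3 (1166), and of these Rpl4, Rplp2, Rps6 and Rpl10a differed between picking sessions, as described further on. Rpl26 was listed at 0 in all 694 wells, which cannot be read as a measured absence of its mRNA. The 5 members under 5 RPM (Rpl26, Rps27, Rpl3l, Rpl10l and Rpl39l) did not enter the tests, which covered 81 members among 10450 genes.

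Several ribosomal proteins have a second gene, and the table ranks the pair in either order. Rpl36al (680 RPM over neuron class values) was above Rpl36a (194.5 RPM), and the pseudogene row Rps4y2 (268 RPM) above Rps4x (109.3 RPM). Rps27l had reads in 558 wells and Rps27 in 51. Rpl7l1 (31.2 RPM) was below Rpl7 (325 RPM) and Rpl22l1 (55.3 RPM) below Rpl22 (101.2 RPM). The testis- and muscle-associated copies were nearly silent: Rpl3l had reads in 3 wells, Rpl39l in 9 and Rpl10l in 14, where Rpl3, Rpl39 and Rpl10 averaged 265, 928 and 387 RPM. Where copies are near-identical, reads could be split or lost in the alignment, so these single levels are uncertain. How alike the copies of each pair are was not examined.

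Across the 4 neuron classes the ribosomal protein genes differed little. Only 2 of 81 members (2.47%) passed the limma F test for any difference among classes (adjusted p under 0.05, Benjamini-Hochberg over all genes), while 11.7% of all genes tested passed it. The median range over the class means was 0.55 on the log2 scale for members and 1.07 for all genes. These sets were not matched for level, and the part of sampling noise in the ranges was not tested. At an unadjusted p under 0.05 the members reached 10 of 81 (12.3%), against 24.3% of all genes. Without the preparation as a block, with TMM scaling, with reads thinned to 3000 a well, or with edgeR on recovered reads, 0 members passed.

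NF-like cells, which include the largest neurons, had lower RPM than the mean of the other classes for most members. RPM is a share of each well's reads, and amounts of mRNA per cell were not measured. The log2 difference from the mean of the other 3 classes, taken on log2(RPM + 5), was negative for 67 of 81 members (82.7%), with a median of -0.28. Over all genes tested 45.6% were negative and the median was 0.06. The median stayed between -0.34 and -0.28 with TMM scaling, with member rows left out of the total and with edgeR. A total of 3 members passed the test as lower, Rps9 and Rps4y2 among them (3.7% of members against 2.14% of all genes called lower), and 0 passed as higher, against 4.14% of all genes. The count of higher members was also 0 at an unadjusted p under 0.05 and with edgeR. At an unadjusted p under 0.05, 18 members were lower (22.2%), against 16.9% of all genes in either direction.

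Rps9, a core protein of the small subunit needed early in its assembly, had 294.5, 234.97, 337, 419 and 351.5 RPM in NF-like cells of A males, A females, B males, C males and C females, and 617, 516, 633, 658 and 624 RPM in TH-like cells of the same preparations. NF-like and TH-like values did not overlap in these 5 preparations, but NF-like values overlapped those of NP-like and PEP-like cells. The NF-like value of C males (419 RPM) was above the NP-like value of A females (415 RPM). It was also above the PEP-like value of C females (387 RPM). The difference from the other classes was -0.73 ± 0.20 (SE, limma adjusted p = 0.0311), lower in 5 of 5 preparations. The adjusted p was above the threshold in 9 of 20 alternatives (range 0.00613 to 0.356), among them leaving out A males (0.2), A females (0.127), B males (0.0629) or plates L281 and L282 (0.323, with a difference of -0.68).

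Rps4y2, the pseudogene row, had 65.4, 94.6, 274, 134.96 and 131.2 RPM in NF-like cells, against 322, 751, 300 and 348 RPM in PEP-like cells of A males, B males, C males and C females. NF-like values overlapped those of NP-like cells (97.6 to 457 RPM) and TH-like cells (161.5 to 513 RPM). The Rps4y2 difference of -1.09 ± 0.33 (SE, limma adjusted p = 0.0491) was lower in 5 of 5 preparations. Its adjusted p was above the threshold in 14 of 20 alternatives (range 0.0106 to 0.342). Its reads may include those of Rps4x, which had 50.4, 34.1, 67.7, 101.7 and 142.1 RPM in NF-like cells.

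In NP-like and TH-like cells 0 members passed in either direction (2.69% and 2.07% of all genes were called higher and lower in NP-like cells, 2.39% and 1.48% in TH-like cells). At an unadjusted p under 0.05, limma gave 3 members higher and 0 lower in NP-like cells (3.7%, against 14.8% of all genes in either direction). In TH-like cells it gave 2 higher and 0 lower (2.47%, against 13.9%). With adjustment, edgeR gave 0 in both classes. The median difference was 0.12 in NP-like cells and 0.05 in TH-like cells. In TH-like cells the sign depended on the scaling: 51 of 81 members were positive on RPM, but 23 with TMM scaling and 27 with edgeR.

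In PEP-like cells the median member difference was 0.14 on RPM and that of all genes -0.30, and 53 of 81 members were positive. With TMM scaling 67 were positive. A single member passed the test, as lower (1.23% of members, against 2.02% of all genes called lower and 0.995% called higher), and it no longer passed with TMM scaling, thinning or edgeR.

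**Figure D1:**
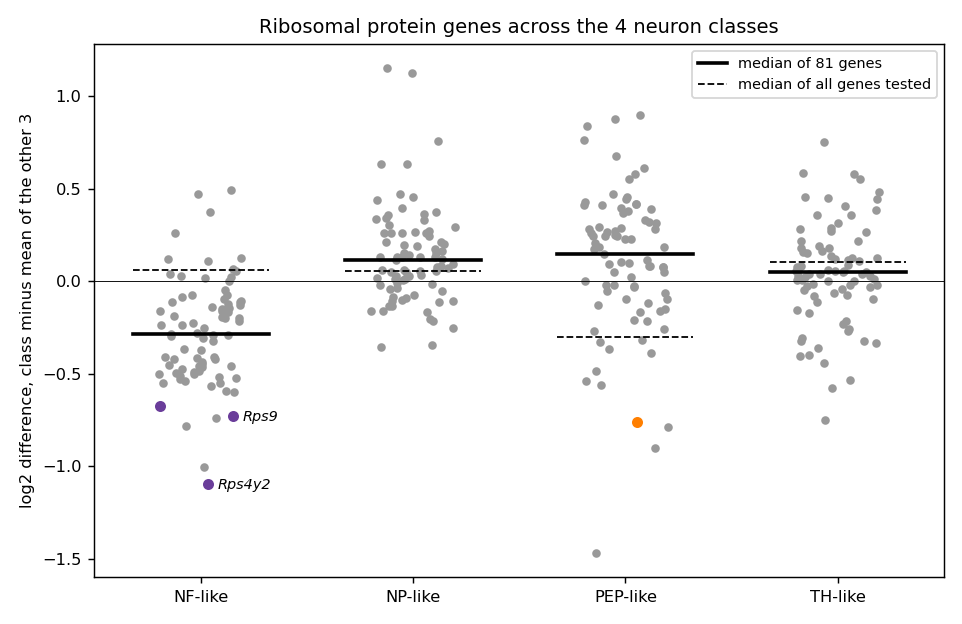
Log2 difference of each neuron class from the mean of the other 3 classes, 1 point for each of 81 ribosomal protein genes (horizontal jitter only). Coloured points passed the limma test after adjustment over 10450 genes. The thick bar is the median of the members and the dashed bar that of all genes; the NF-like median lies at -0.28, below the dashed bar at 0.06.

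Summed over all 86 members, ribosomal protein reads made up 3.73% ± 0.811 (SD, n = 5 preparations) of the reads in NF-like cells. The share was 4.67% ± 0.997 (n = 5) in NP-like, 4.81% ± 0.804 (n = 4) in PEP-like and 4.78% ± 1.03 (n = 5) in TH-like cells. By preparation, NF-like cells had 2.94%, 2.9%, 4.81%, 3.99% and 4.02%, and TH-like cells 4.02%, 3.64%, 6.26%, 4.8% and 5.2%. NF-like cells had the lowest share of the neuron classes in 5 of 5 preparations, although the SDs of the classes overlap because preparations moved together. No test was made on this sum. By cluster, averaged over wells of all sessions, the 3 NF-like clusters had 3.48% to 3.96%. Of the 4 NP-like clusters, 1 (39 wells) lay in that range at 3.63%, and the 9 other neuron clusters had 4.21% to 5.97%. Clusters differed in session make-up, and the cluster at 5.97% drew 33 of its 40 wells from session B. Without the 9 rows that followed session, described further on, that cluster had 3.24%. The NP-like cluster of 39 wells then had 2.9% and the NF-like clusters 2.54% to 2.74%. Single wells spread widely, from 1.6% to 9.27% in NF-like cells (median 3.4%) and from 2.11% to 14.1% in TH-like cells (median 4.7%).

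**Figure D2:**
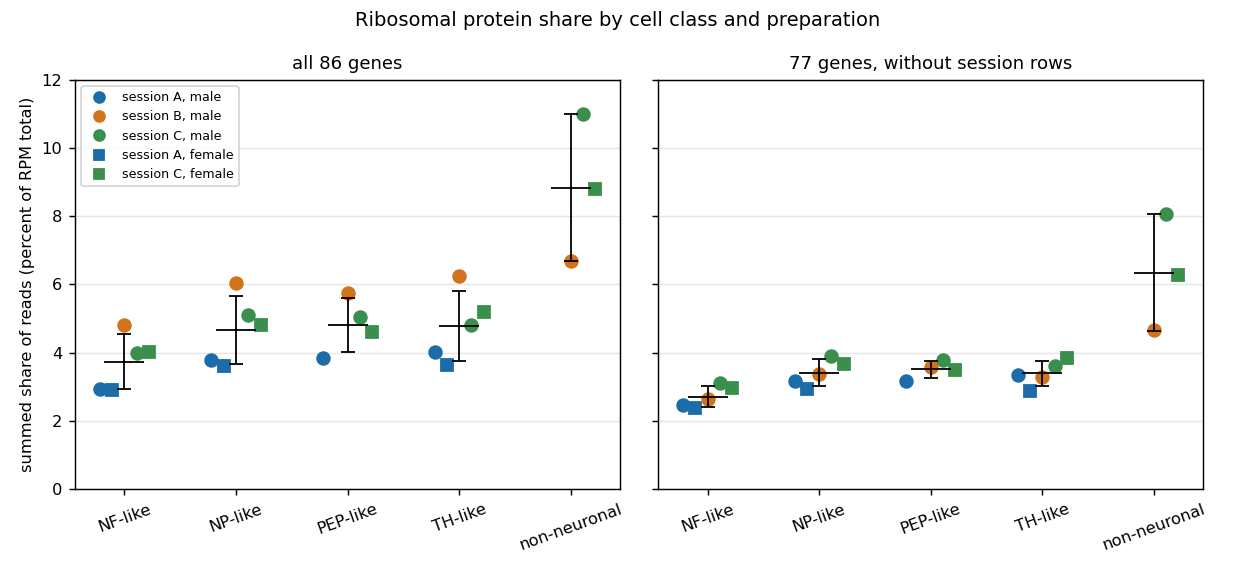
Summed share of reads on ribosomal protein genes, in percent of the RPM total, by cell class (horizontal axis) and preparation (circles males, squares females, colour by session), for all 86 genes on the left and for 77 genes without the 9 session rows on the right. Bars give the mean and SD over preparations. The session B points stand highest among neurons on the left and fall among the others on the right, where rows chosen for their session difference are left out.

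More ribosomal protein rows passed the test between picking sessions than between cell classes. Of 81 members, 9 (11.1%) passed the limma F test over the 3 sessions, on 1 value per preparation averaged over NF-, NP- and TH-like cells, against 1.52% of all genes tested. In all 9 the range over sessions was larger than the range over neuron classes, so that these rows followed session; among them were Rpl4, Rplp2, Rpl10a, Rps13, Rps6, Rps12, Rpl35 and Rpl8. A single row followed class by the same rule and 71 followed neither. The session range exceeded the class range in 54 of 81 members (66.7%) and in 24.6% of all genes. Its median was 0.91 for members and 0.61 for all genes, again without matching for level. Between pairs of sessions, 7 members were higher and 1 lower in session C than in A (0.718% and 1.48% of all genes). In session B, 2 were higher and 0 lower than in A (0.105% and 0.105%). At an unadjusted p under 0.05 limma gave 29 higher and 8 lower in C (45.7%, against 15.3% of all genes in either direction). It gave 11 higher and 2 lower in B (16%, against 5.77%). The test has 2 residual degrees of freedom, and leaving out any 1 of the 4 preparations of sessions A and C left 0 members past it, as did testing genes of low level too.

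**Figure D3:**
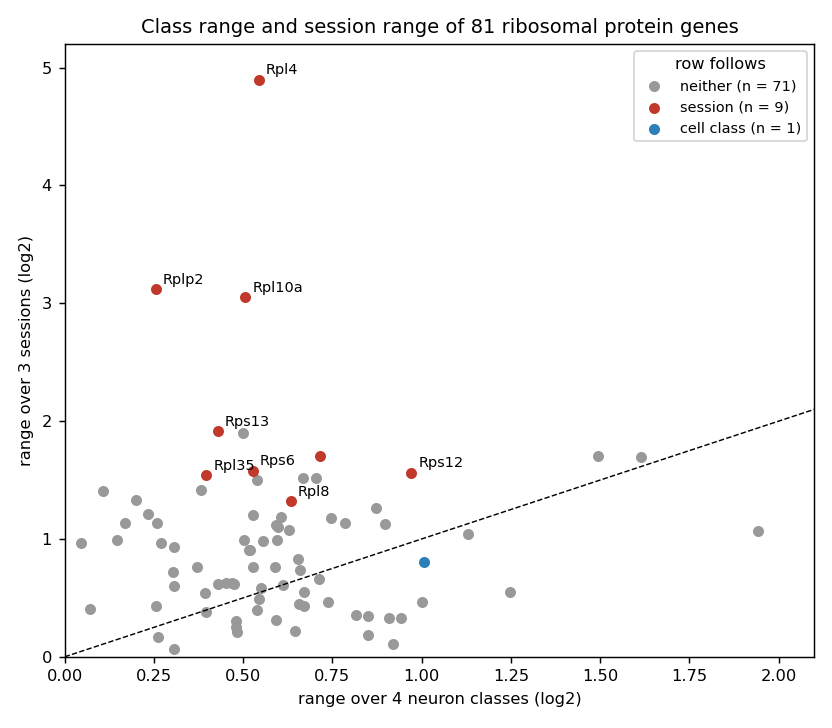
Each point is 1 of 81 ribosomal protein genes, with its range over 4 neuron class means on the horizontal axis and over 3 session means on the vertical axis, both on log2(RPM + 5). The dashed line marks equal ranges. Red points are the 9 rows that followed session, led by Rpl4 at a session range of 4.90 against a class range of 0.54, and the blue point is the row that followed class.

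Rpl4, a large subunit protein whose loop reaches into the peptide exit tunnel, was highest in session B. Averaged over NF-, NP- and TH-like cells it had 530, 718.5, 18396, 806 and 1551 RPM in A males, A females, B males, C males and C females. Both session B plates, which belong to the same preparation, showed it (14595 and 21262 RPM over neurons), and the 8 other plates ranged from 403.5 to 1573 RPM. The B minus A difference was 4.90 ± 0.38 (SE, limma adjusted p = 0.000633). The 5th percentile of single session B neurons was 1872 RPM and the 95th percentiles of sessions A and C were 1306 and 2300 RPM, so that single neurons of sessions B and C overlapped. In all 4 neuron classes the session B value was the highest: 15457 RPM in NF-like, 18032 in NP-like, 13559 in PEP-like and 21700 in TH-like cells. In the non-neuronal wells session B reached 5805 RPM, against 2337 and 3047 RPM in session C. Wells with picking medium and no cell held 2536 RPM of Rpl4 in session B, 659 in A and 1506 in C, pooled over 4, 3 and 7 wells.

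Rplp2, an acidic stalk protein that recruits elongation factors, was high in session C. It had 319, 419, 316, 2667 and 2910 RPM in the 5 preparations in the same order, and the 5 session C plates (2202 to 5315 RPM) did not overlap the 5 others (285 to 399.6 RPM). The C minus A difference was 2.92 ± 0.23 (SE, limma adjusted p = 0.000208). The class range of 0.26 was small beside the session range of 3.12. The neighbouring stalk protein Rplp1 had 1175, 1260, 1382, 2721 and 2134 RPM, a C minus A difference of 0.99 ± 0.22 (SE, limma adjusted p = 0.0482), although its F test over the 3 sessions did not pass (adjusted p = 0.0939). The row Rplp2-ps1, outside the name rule, had 72.6, 67.4, 95.5, 210.1 and 175.6 RPM, with a C minus A difference of 1.38 ± 0.29 (limma adjusted p = 0.0443) and an F test that did not pass (adjusted p = 0.0928).

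Rpl10a, a large subunit protein at the mobile L1 stalk, went the other way. It had 2167, 1992, 1517, 230.3 and 258 RPM in the 5 preparations, and the C minus A difference was -3.05 ± 0.22 (SE, limma adjusted p = 0.000131). Session C plates ran from 124.6 to 684 RPM and the others from 957 to 3523 RPM. Plates L281 and L282 held the highest values of session C, at 684 and 566 RPM. Without those plates the session range was 3.35 (adjusted p = 0.000783).

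Rps6, the small subunit protein phosphorylated by S6 kinases, and Rpl35, which sits at the exit of the peptide tunnel, were both high in session C. Rps6 had 614, 697, 657, 2029 and 1965 RPM in the 5 preparations, a C minus A difference of 1.58 ± 0.22 (SE, limma adjusted p = 0.00422). Rpl35 had 341.5, 389.7, 415, 1120 and 1040 RPM, a difference of 1.54 ± 0.23 (SE, adjusted p = 0.00623). For both genes all 5 session C plates were above all 5 plates of sessions A and B.

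Rps13, a small subunit protein, had 266, 384.5, 164.3, 605 and 677.5 RPM and was lowest in session B. Rps12, a small subunit protein of the beak, had 197.8, 323.5, 376, 807 and 735 RPM, and Rpl8, a core large subunit protein near the peptidyl transferase centre, had 390, 524, 538, 1074 and 1207 RPM. For Rps13, Rps12 and Rpl8 the F test passed narrowly (limma adjusted p = 0.0313, 0.0497 and 0.0459) and ended without plates L281 and L282 (0.0651, 0.0829 and 0.0725). Over 20 alternatives their adjusted p ranged from 0.0169 to 0.837, from 0.0163 to 0.855 and from 0.00488 to 0.855.

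**Figure D4:**
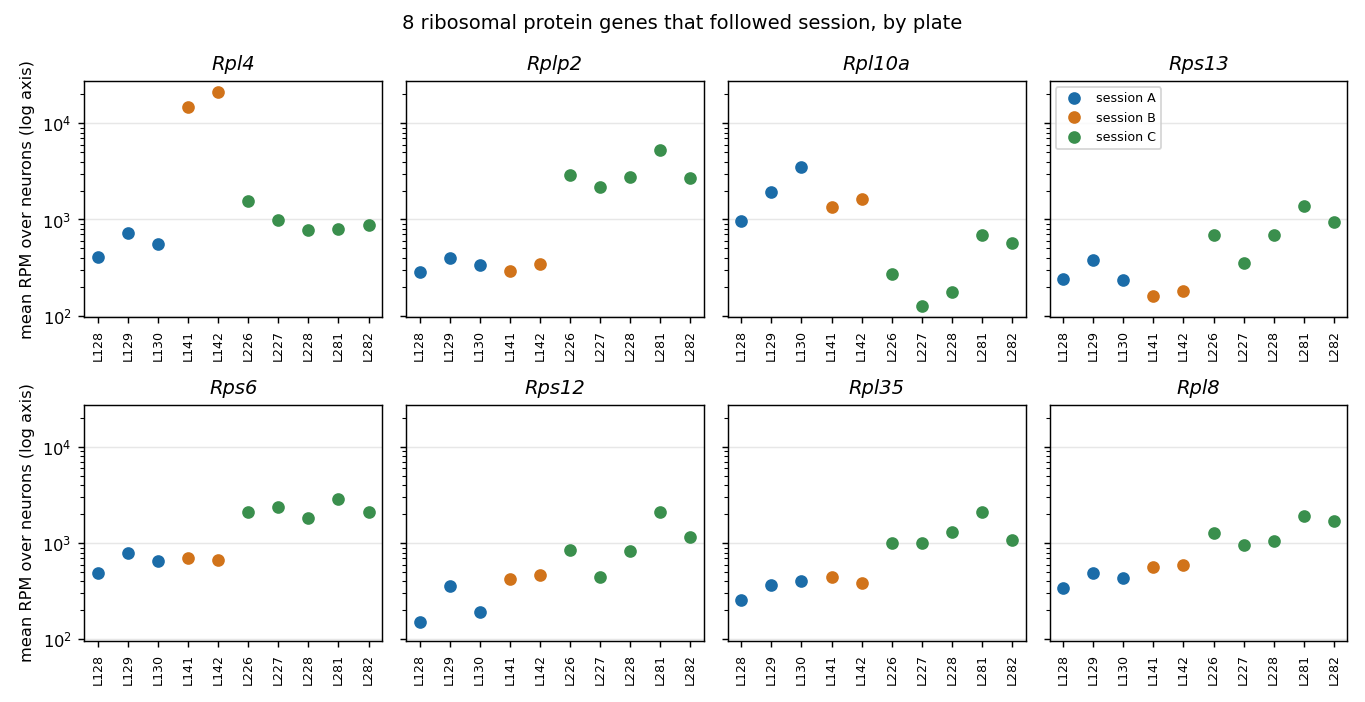
Mean RPM over neurons on each of 10 plates (log axis) for 8 rows that followed session, coloured by picking session. Rpl4 stands apart on the 2 session B plates, Rplp2, Rps6, Rpl35 and Rpl8 are higher and Rpl10a is lower on the 5 session C plates.

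Only plate L129 held both sexes. On it, males and females had 746 and 701 RPM of Rpl4, 389 and 409 RPM of Rplp2, 1900 and 1930 RPM of Rpl10a, and 905 and 682 RPM of Rps6. With sex as a covariate, which leaves 1 residual degree of freedom, Rpl4, Rplp2 and Rpl10a still passed the session test (adjusted p = 0.0123 for each). Over 20 alternatives the adjusted p of these 3 ranged from 1.04e-06 to 0.593, from 1.05e-05 to 0.64 and from 0.000183 to 0.593, the upper values coming from leaving out 1 preparation. With every well thinned to 3000 reads, 7 members passed, 6 of them among the 9; Rpl4 had a session range of 4.86 and Rplp2 of 3.22.

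The summed share was also taken without session rows. These rows were chosen because they differed by session in these data, so a smaller session difference without them follows from that choice. Averaged over NF-, NP- and TH-like cells, the share of all 86 members was 3.58%, 3.39%, 5.71%, 4.63% and 4.67% in the 5 preparations. Without Rpl4 it was 3.53%, 3.31%, 3.87%, 4.55% and 4.52%, a fall in session B from 5.71% to 3.87%. Without the 9 session rows it was 2.99%, 2.72%, 3.1%, 3.54% and 3.5%. In that smaller sum NF-like cells remained lowest, at 2.71% ± 0.319 (SD, n = 5) against 3.41% ± 0.388 in NP-like, 3.51% ± 0.246 (n = 4) in PEP-like and 3.39% ± 0.37 in TH-like cells.

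Plates L281 and L282 of session C stood apart in the share as well. Their neurons had 8.32% (15 wells) and 7.21% (10 wells) ribosomal protein reads, against 2.8% to 6.02% on the 8 other plates. The gap held without the 9 session rows, at 6.3% and 5.76% against 2.41% to 3.71%. These plates held 15 of the 44 non-neuronal wells and 25 of the 650 neurons.

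The non-neuronal wells carried a larger ribosomal protein share than neurons. It was 6.7% in B males, 11% in C males and 8.81% in C females, a mean of 8.84% ± 2.16 (SD, n = 3 preparations), where neuron classes of these preparations had 3.99% to 6.26%. Single wells ranged from 0.113% to 34.6% (median 8.9%). Without plates L281 and L282 the mean was 7.33%. Medium wells without a cell, which hold few reads, had 3.48% in session B (4 wells, 453 of 13015 reads) and 7.23% in session C (7 wells, 2017 of 27886 reads); the part of such background reads in the shallow non-neuronal wells was not tested.

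Gene by gene, members moved in both directions in non-neuronal wells. Of 81 members, 27 passed the limma test as higher (8.46% of all genes did) and 17 as lower (41.6% of all genes). The member median was 0.16 and the median of all genes -1.08, and 60 of 81 members lay above that median. The split depended on the scaling: TMM gave 50 higher and 3 lower with a member median of 1.79, and edgeR 41 higher and 5 lower. The median of all genes was -0.49 with TMM and -1.08 with edgeR, and 65 and 72 of 81 members lay above it. Shares of all genes called under these settings are not given here. The members called higher had a median neuron level of 928 RPM (78.5 to 2687), those called lower one of 164.96 RPM (10.9 to 746), and the 37 not called one of 247.8 RPM (17.9 to 4311). Rpl4 was not called (0.37 ± 0.34 SE, limma adjusted p = 0.363). Its mean over neuron class values, 4311 RPM, was the highest but rested on session B males. Averaged over NF-, NP- and TH-like cells, Rpl4 had 18396 RPM there and 530 to 1551 RPM in the other preparations. Without plates L281 and L282 there were 20 higher and 23 lower.

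Rps3a, a small subunit protein near the mRNA exit, had 2092, 4453 and 4291 RPM in non-neuronal wells of B males, C males and C females, where the 4 neuron classes averaged 951, 1206 and 1144 RPM. The difference was 1.69 ± 0.23 (SE, limma adjusted p = 6.77e-06). Rps13 had 350, 2493 and 2903 RPM against 173.3, 678 and 736 RPM, a difference of 1.64 ± 0.26, and Rps18, a head protein of the small subunit, had 534, 2141 and 1603 RPM against 257, 610 and 423 RPM, a difference of 1.60 ± 0.27. Rpl35 had 520, 4798 and 3907 RPM against 421, 1190 and 935 RPM. These 4 passed under each of 20 alternative settings; with TMM scaling their differences were 3.12 to 3.32.

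Among the members called lower, Rpl7l1, a homologue of Rpl7, had 0, 0.41 and 0.488 RPM in non-neuronal wells against 33.6, 33.3 and 30.4 RPM in neurons, a limma difference of -2.71 ± 0.50 (SE, adjusted p = 0.000155). Rpl28 had 7.94 and 0 RPM in the 2 session C preparations against 118.4 and 140.5 RPM, a difference over all 3 preparations of -2.70 ± 0.57. Rpl36al had 517, 306 and 16.9 RPM against 1051, 620 and 785 RPM. Rps27a, which is made as a fusion with ubiquitin, had 110.7, 60.7 and 3.78 RPM against 228.99, 200.2 and 200.55 RPM, and Rpl36 had 89.2, 3.51 and 9.31 RPM against 105.2, 168.4 and 65.1 RPM. For Rpl28 and Rpl36 the gap was small in B males, which had 8 non-neuronal wells, and large in both session C preparations. The calls ended for Rpl28 with edgeR (adjusted p = 0.0635), for Rpl36 and Rpl36al with TMM scaling (0.0626 and 0.131), and for Rps27a with both (0.132 and 0.0643). Leaving out C males ended the call for Rpl36 too (-1.24 against -2.26, adjusted p = 0.0526). Leaving out C females shrank the differences of Rpl28, Rpl36al and Rps27a to -1.69, -0.997 and -1.32, with adjusted p of 0.0262, 0.00359 and 0.0101.

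**Figure D5:**
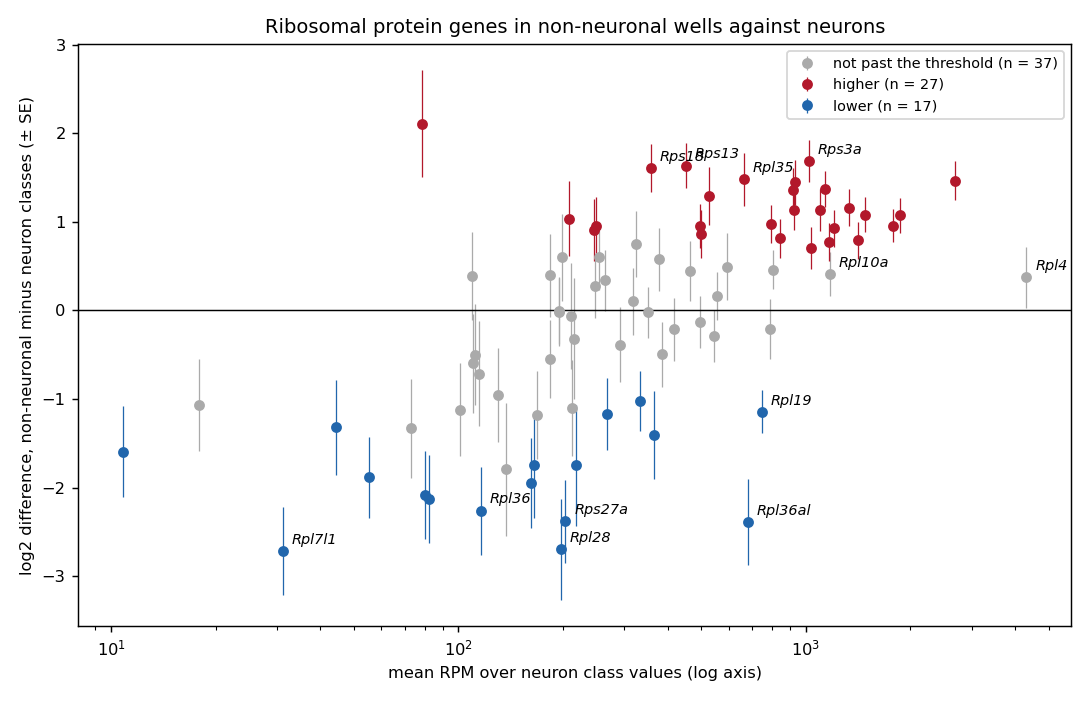
Log2 difference of non-neuronal wells from the mean of the 4 neuron classes (± SE, vertical axis) against the mean RPM over neuron class values (log axis) for 81 ribosomal protein genes. Red points (27) passed as higher and blue points (17) as lower with limma on RPM; the blue points reach from 10.9 to 746 RPM, and the grey points (37) from 17.9 to 4311 RPM.

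Ribosome components outside the name rule gave mixed values. Fau, which encodes the small subunit protein eS30 as a fusion, had 1207, 1055, 1376, 2415 and 2567 RPM in the 5 preparations (C minus A 1.12 ± 0.21 SE, limma adjusted p = 0.0226), and its F test over the 3 sessions did not pass (adjusted p = 0.052). Gnb2l1, the RACK1 scaffold on the small subunit, had 137.9, 239.8, 214.8, 273 and 338 RPM, a C minus A difference of 0.75 ± 0.30 (SE, limma adjusted p = 0.277), and its F test did not pass either (adjusted p = 0.51).

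Genes that work with the ribosome were counted from lists. Of 38 translation factors and other genes with a pyrimidine tract that were tested, 2 were lower and 0 higher in NF-like cells (Eef1a1 and Vim; 2.14% of all genes were called lower and 4.14% higher), and the median was -0.10. Eef1a1, the main elongation factor of non-neuronal cells and many neurons, averaged 419.9 ± 133.1 RPM (SD, n = 5) in NF-like and 1280 ± 245.1 RPM in NP-like cells; the NF difference was -1.27 ± 0.19 (SE, limma adjusted p = 0.000116). Its neuronal counterpart Eef1a2 had 230.8 ± 62.2 RPM in NF-like and 115.3 ± 35.4 RPM in TH-like cells, and its NF difference of 0.81 did not pass (limma adjusted p = 0.171). One of the 38, Eif1, passed the session F test, which 1.52% of all genes passed. Of 75 mitochondrial ribosomal protein genes tested, 5 passed the session test (Mrpl43, Mrpl45, Mrpl46, Mrpl49 and Mrps6), and Mrpl45 passed as higher in NF-like cells, where the median of the 75 was 0.42. Of 37 ribosome assembly genes tested, 2 passed the session test (Nop56 and Wdr12) and 2 were lower in PEP-like cells (Ebna1bp2 and Nop56; 2.02% of all genes). Counts this small were not compared with those of all genes by a test. In non-neuronal wells 48 of the 75 mitochondrial ribosomal protein genes and 21 of the 37 assembly genes were lower on RPM, with 1 higher in each list, and of the 38 translation factors and pyrimidine tract genes 16 were lower and 7 higher; over all genes 41.6% were lower and 8.46% higher.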

How the data were processed

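Reads were aligned with Bowtie to mm9 by the authors, per the submitters' processing notes; how reads were counted is not given in the sources used here. The deposited table gives RPM for each gene row and well, set by the authors; in 841 of 864 wells the values are whole multiples of 1 read (99.6% within 0.1 read), and 4 wells of uncertain scale are held as a deposited score and were not used. Rows named for repeats (1217 of 25333) were left out, and the _loc copies of a gene were summed. Members and lists were chosen with earlier results of these data known.

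Wells of 1 cell with 1000 or more genes were clustered without member rows (scanpy 1.11.5, leidenalg 0.10.2, 1000 variable genes, 15 components, resolution 2). Each cluster took the class with most markers raised by 0.5 on the log2 scale (at least 3); this count, rather than a share of markers, was chosen after cluster names but before member contrasts were seen. A cluster that took any non-neuronal list was called non-neuronal. Doublets were removed only as the labels mark wells of more than 1 cell. No 2 kept wells held identical values. Mean RPM was taken per class and preparation with 3 or more cells (22 values), and log2(RPM + 5) was fitted with limma 3.58.1 (trend, robust) for genes averaging at least 5 RPM, with preparation, which the labels mark as session and sex, as a block, and p-values adjusted over 10450 genes (threshold 0.05, two-sided). The session test used 1 value per preparation. The fit was tested on simulated data. edgeR 4.0.16 on recovered reads, TMM scaling, other pseudocounts and filters, thinning, other clusterings, plates as the unit and leaving out each preparation were alternatives; plates as the unit, leaving out plates L281 and L282, and the sums without session rows were chosen after seeing the data. Named members are the 10 highest in neurons, up to 5 called higher and 5 lower per contrast with 1 direction in every preparation, all session rows, second copies, and Gnb2l1 and Fau; some genes the rule takes in are not reported here. Reads carry no molecular identifiers, so reads are not independent molecules.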

Additional observations from a re-analysis of the deposited data

Results flagged for a closer look

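Among the named members and the summed share, 88 groups of 4 or 5 preparations were examined for a value far from the others, and 7 had one; chance gives about 1 in 20. Rpl4 in session B males was such a value in NF-like (15457 RPM), NP-like (18032 RPM), PEP-like (13559 RPM) and TH-like cells (21700 RPM). Rps4y2 in PEP-like cells stood apart in session B males, at 750.5 RPM. Rpl28 in TH-like cells of session A males (470.7 RPM) was above the 4 other preparations, and Rps9 in TH-like cells of session A females (515.7 RPM) was below them.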

How the results depend on the processing

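The count of members lower in NF-like cells (3) was 8 with no filter on low values, 11 with 10 or more cells per value, 1 without plates L281 and L282, and 0 with TMM scaling, thinning or edgeR; leaving out 1 preparation gave 0 to 9. That in PEP-like cells (1) was 0 with no filter, TMM scaling, thinning, edgeR or classes clustered with member rows, and 0 to 1 leaving out 1 preparation. Members passing the class F test (2) numbered 4 with a pseudocount of 20 or no filter, 8 with 10 or more cells, 1 with plates or without L281 and L282, 0 with TMM scaling, thinning or edgeR, and 0 to 3 leaving out 1 preparation. Members higher in TH-like cells (0) were 2 with 10 or more cells, and 0 to 1 leaving out 1 preparation. Non-neuronal counts (27 higher, 17 lower) were 50 and 3 with TMM scaling, 41 and 5 with edgeR, 11 lower with thinning, and 26 to 30 higher and 12 to 22 lower leaving out 1 preparation. Session rows (9) numbered 0 with no filter, 3 with sex as a covariate, 15 with edgeR, and 0 to 7 leaving out 1 preparation, where 1 or 2 residual degrees of freedom remain. The summed share without session rows was 2.71%, 3.41%, 3.51%, 3.39% and 6.34% in NF-, NP-, PEP-, TH-like and non-neuronal wells; leaving out 1 preparation gave 3.46% to 3.94%, 4.32% to 4.93%, 4.49% to 5.13%, 4.42% to 5.07% and 7.76% to 9.91% for all members. Of 11 signed differences of named members under 20 alternatives, none changed sign and 29 values no longer passed the threshold. For 20 F tests of named members, whose ranges have no sign, 63 values no longer passed and 8 newly passed.

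Without preparation as a replicate block, 0 members were lower in NF-like cells, 0 lower in PEP-like cells and 0 passed the class F test, and 22 were higher and 15 lower in non-neuronal wells; the cause was not tested. Session A wells held a median of 15421 or 15597 reads, so members under about 100 RPM rest on 1 or 2 reads a well there.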
